A study of Mus musculus with 20 samples.

Results

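The anaphase-promoting complex and its activators were followed across mouse male meiosis by 10 genes, Anapc1, Anapc2, Anapc4, Anapc5, Anapc7, Anapc10, Anapc11, Anapc13, Cdc20 and Fzr1. They are 10 of the 18193 genes that have at least 1 array probe set annotated to that gene alone, and 26 of 34945 such probe sets measured them. Anapc1 was selected on its log2 signal, which fell across the fractions, so its values are a description without a test, and the question asked of the other 9 genes was whether they follow it. A probe set is a group of short array oligonucleotides that reports 1 value, and 23 of the 26 reached a log2 signal of at least 5 in at least 2 arrays and entered the tests. Each gene was represented by its probe set of highest mean signal, called the lead, and all 10 leads passed. The 3 probe sets that did not pass were 1 each of Anapc1, Anapc7 and Anapc11. Values are log2 GC-RMA signals, where GC-RMA is a background correction and summary for Affymetrix arrays, and signals of different probe sets were not set against each other.

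The cells came from testes of adult F1 males of the cross C57BL/6 x DBA/2J, 10 to 16 weeks old. Hoechst 33342, a dye of living cells' DNA, and flow sorting split them into 8 fractions that carried no mutation or treatment. These were spermatogonia (4 arrays), pre-leptotene (3), leptotene-zygotene (3), early-pachytene (1), mid-pachytene (2), late-pachytene (1), diplotene (2) and round spermatids (4). Each array held RNA pooled from several sorts, the leptotene-zygotene fraction mixed both stages, and early- and late-pachytene cells had no replicate. Replicates were labelled biological, and p-values measure the spread between these pools. Signal is relative to the whole array, so fewer cells of a type and less RNA per cell cannot be told apart.

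The anaphase-promoting complex is a ubiquitin ligase of many subunits that marks proteins such as securin and the cyclins for destruction by the proteasome, which lets sister chromatids or homologs part and lets cells leave division. A platform of Anapc1, Anapc4 and Anapc5 joins a catalytic core, the cullin Anapc2 and the RING protein Anapc11, to an arm of proteins built from tetratricopeptide repeats. Cdc20 and Fzr1 (Fzr1 is also called Cdh1) are the co-activators that bring substrates to the complex. In male meiosis the complex acts at both divisions, which follow diplonema and precede the round spermatid.

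The array medians lay between 11.1 and 12.7 on the linear signal scale. Of 5 spermatogonial markers 0 were highest in the spermatogonia fraction, 2 being highest in pre-leptotene and 3 in leptotene-zygotene arrays. The 6 spermatid markers, the protamines among them, summed to signals of 83996 to 114541 in round spermatid arrays and 41831 to 155659 in spermatogonia arrays. Of 7 macrophage markers 6 were highest in spermatogonia, with sums of 873 to 2388 there, 1114 in pre-leptotene replicate 1 and 45.6 to 60.2 in leptotene-zygotene arrays. Of 6 Sertoli cell markers Sox9 and Gata4 stayed under a log2 signal of 5 on every array, while Aard reached 10.22, Wt1 6.30, Cldn11 6.25 and Rhox5 5.64, and the list summed to 87.3 to 1371 in round spermatid arrays and 497 to 718 in spermatogonia arrays. Of 4 Leydig cell markers Cyp11a1 stayed under 5, while Cyp17a1 reached 7.95, Star 6.20 and Hsd3b1 5.83. The peritubular cell markers Acta2 and Myh11 reached 11.19 and 8.19, and summed to 325 to 858 in round spermatid arrays and 587 to 2621 in spermatogonia arrays. The part of these cells or transcripts in the values below was not tested. Arrays also carried project numbers, read from the column heads of a cluster table supplied with the study and matched at 100% of 2157 equal signals, so that changes could be compared within a project.

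The late fractions, from mid-pachytene to round spermatids, were compared with the early ones, spermatogonia to leptotene-zygotene, as means of fraction means. The platform genes Anapc4 and Anapc5 and the cullin Anapc2 were lower in the late fractions, with log2 changes of -2.68, -2.30 and -1.81. The lead of Anapc1 changed by -2.70, and Anapc13 was lower by a smaller amount. Fzr1 was higher, and Anapc7, Anapc10, Anapc11 and Cdc20 were not called. Of the 9 tested leads 4 were called lower and 1 higher at a limma adjusted p under 0.05, while 43.3% of all 22396 tested probe sets were called lower and 34% higher. The number called lower was therefore near the background of the array and the number called higher below it. With 9 leads this difference from the background was not tested. The median change of the 9 leads other than Anapc1 was -0.03, and that of all tested probe sets was -0.25 (-0.10 after quantile normalization). Differences between members in the size or timing of a change were not tested.

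**Figure D1:**
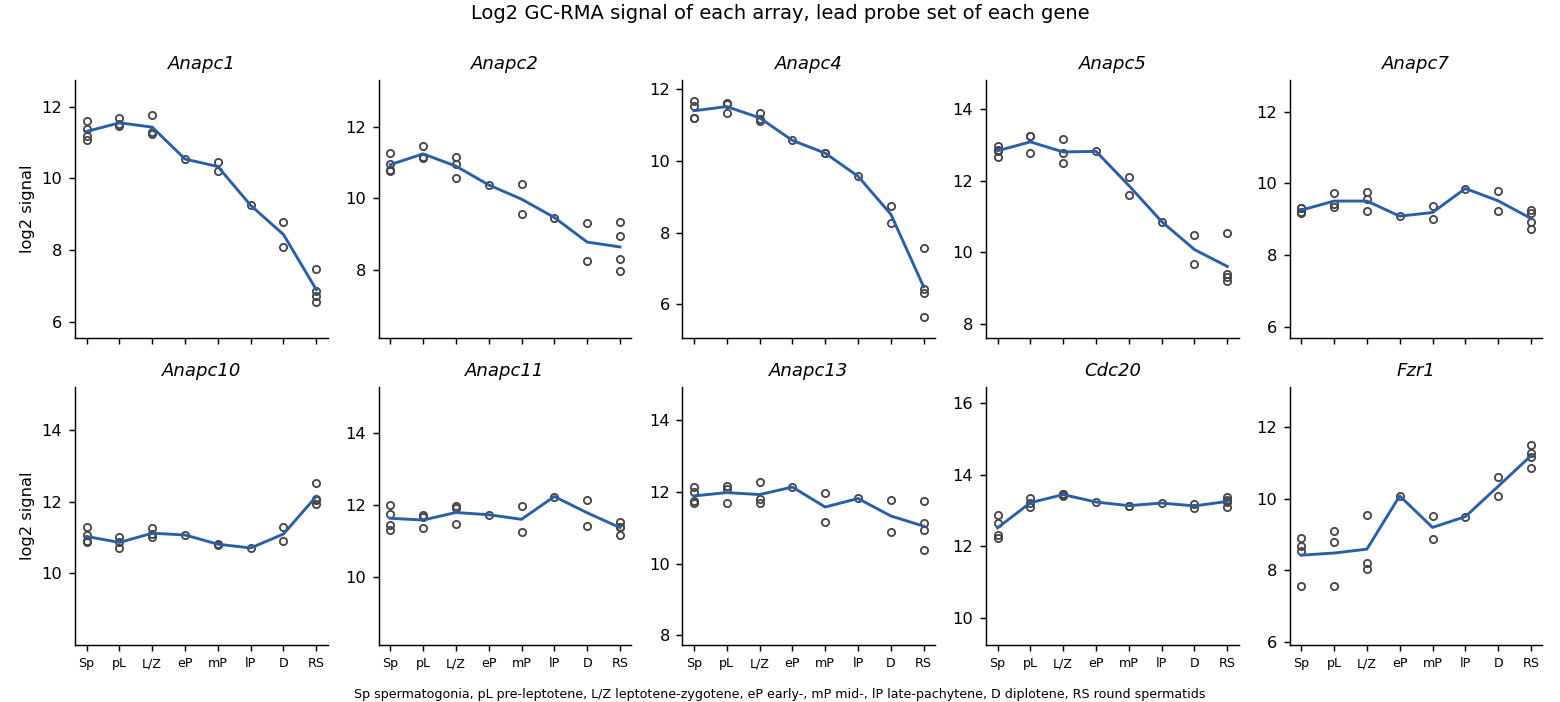
Log2 GC-RMA signal of the lead probe set of each gene (vertical axis, every panel spanning the same number of log2 units) in the 8 fractions (horizontal axis), with a circle for each array and a line through the fraction means. Anapc1, Anapc2, Anapc4 and Anapc5 decline from pachynema on, Fzr1 climbs, Anapc10 is high in round spermatids and Cdc20 is low in spermatogonia.

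Anapc1, the largest subunit and the scaffold of the platform, gave log2 signals of 11.17, 11.08, 11.39 and 11.61 in spermatogonia, 11.45, 11.52 and 11.68 in pre-leptotene, 11.29, 11.76 and 11.25 in leptotene-zygotene, 10.54 in early-pachytene, 10.46 and 10.21 in mid-pachytene, 9.25 in late-pachytene, 8.80 and 8.08 in diplotene and 7.47, 6.72, 6.86 and 6.55 in round spermatids. The 10 early arrays overlapped each other, and from early-pachytene on the arrays of each stage lay below those of every stage before it. The late mean was 8.73 and the early mean 11.43, a difference of -2.70 (SE 0.17). The round spermatid mean lay 4.54 below the early mean. Of all tested probe sets 10.3% had a change as low as this or lower.

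Other probe sets of Anapc1 did not show this course. In 1434444_s_at the fraction means were 7.69 in spermatogonia, 8.20 in pre-leptotene, 8.51 in leptotene-zygotene, 7.998 in early-pachytene, 8.25 in mid-pachytene, 8.12 in late-pachytene, 7.73 in diplotene and 5.84 in round spermatids, so only the last step stood out. The late over early difference was -0.65 for 1434444_s_at and -0.68 for 1434443_at, against -2.70 for the lead 1415680_at. Another, 1444271_at, had fraction means between 4.28 and 5.49, near background. The mean of all Anapc1 probe sets, including those near background, differed by -0.95. In 1434443_at the early-pachytene array read 4.60, while mid-pachytene averaged 7.63, diplotene 6.77 and spermatogonia 6.91. The stepwise decline of Anapc1 from early-pachytene to diplotene therefore rested on 1 probe set.

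Anapc4, a platform subunit beside Anapc1 and Anapc5, followed the lead of Anapc1 most closely. Its log2 signals were 11.20, 11.19, 11.68 and 11.53 in spermatogonia, 11.34, 11.60 and 11.61 in pre-leptotene, 11.10, 11.34 and 11.18 in leptotene-zygotene, 10.57 in early-pachytene, 10.22 and 10.22 in mid-pachytene, 9.57 in late-pachytene, 8.75 and 8.28 in diplotene and 7.57, 6.31, 6.43 and 5.65 in round spermatids. Late and early arrays did not overlap, and each stage from early-pachytene on lay below the one before. The late mean was 8.70 and the early mean 11.37, a change of -2.68 (SE 0.22, limma adjusted p = 1.2e-08). The other Anapc4 probe set, 1423930_at, was called lower too (limma adjusted p = 4.83e-10). Its round spermatid arrays read 3.73 to 4.11, in the background, so no size is given for its change. Its diplotene arrays read 7.04 and 5.87, below its early arrays at 9.71 to 10.87.

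Anapc5, the platform subunit with its own tetratricopeptide repeats, was also lower late. Its log2 signals were 12.97, 12.86, 12.84 and 12.67 in spermatogonia, 13.24, 13.24 and 12.76 in pre-leptotene, 13.16, 12.76 and 12.48 in leptotene-zygotene, 12.82 in early-pachytene, 12.11 and 11.61 in mid-pachytene, 10.86 in late-pachytene, 10.47 and 9.68 in diplotene and 10.53, 9.38, 9.19 and 9.32 in round spermatids. The early-pachytene array of the lead lay within the range of the early arrays, while that of 1435177_a_at, at 11.64, lay below all of its early arrays, at 11.97 to 12.52. In the lead, round spermatids overlapped diplotene. The late mean was 10.60 and the early mean 12.90, a change of -2.30 (SE 0.21, limma adjusted p = 4.13e-08). The lead and 4 other Anapc5 probe sets were called lower, with changes between -2.42 and -2.28. The remaining probe set, 1453307_a_at, was called lower as well but read under 5 in every late array and in 4 early arrays, the 3 of project 2 and leptotene-zygotene replicate 2, against 7.02 to 7.78 in the other 6, so no size is given for it. Round spermatid replicate 1 was the highest array of that fraction for Anapc1, Anapc2, Anapc4, Anapc5, Anapc13 and also Anapc7, which was not called. In it the 5 spermatogonial markers summed to 814, against 107 to 246 in the other 3 round spermatid arrays, and the part of this in the values was not tested.

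In the catalytic core the cullin and the RING protein differed. Anapc2, the cullin, gave log2 signals of 11.26, 10.76, 10.95 and 10.79 in spermatogonia, 11.46, 11.15 and 11.12 in pre-leptotene, 11.15, 10.97 and 10.58 in leptotene-zygotene, 10.38 in early-pachytene, 10.40 and 9.55 in mid-pachytene, 9.47 in late-pachytene, 9.31 and 8.26 in diplotene and 9.35, 8.96, 8.31 and 7.97 in round spermatids. All late arrays lay below all early ones, and the decline ended in diplotene, whose arrays overlapped round spermatids. The late mean was 9.22 and the early mean 11.03, a change of -1.81 (SE 0.22, limma adjusted p = 1.63e-06). Anapc11, the RING subunit that binds the ubiquitin-charged enzyme, had fraction means between 11.37 in round spermatids and 12.24 in late-pachytene. Its change was 0.08 (SE 0.17, limma adjusted p = 0.674), and its arrays overlapped between late and early. Its other tested probe set, 1447897_x_at, changed by 0.03 (SE 0.22, limma adjusted p = 0.895).

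Anapc10, which forms part of the pocket for the destruction box of substrates, was highest in round spermatids. Its log2 signals were 11.30, 10.89, 10.86 and 11.05 in spermatogonia, 11.01, 10.69 and 10.87 in pre-leptotene, 11.25, 11.10 and 10.997 in leptotene-zygotene, 11.07 in early-pachytene, 10.80 and 10.82 in mid-pachytene, 10.70 in late-pachytene, 10.90 and 11.28 in diplotene and 11.93, 12.05, 12.51 and 12.08 in round spermatids. The 4 round spermatid arrays lay above the other 16, which overlapped widely. Round spermatids averaged 12.14 and diplotene 11.09, a change of 1.05 (SE 0.24, limma adjusted p = 0.00476), and 10.9% of all tested probe sets were called higher at this step. The call was lost without diplotene replicate 1 (change 0.86, limma adjusted p = 0.0864). The other probe set, 1429375_at, changed by 0.80 (SE 0.35, limma adjusted p = 0.108). Over all late fractions Anapc10 changed by 0.19 (SE 0.14, limma adjusted p = 0.22), and with the replicate number as a block it was called higher, at 0.36 (limma adjusted p = 0.0297).

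Of the arm, the members are Anapc7 and Anapc13. Anapc7, an accessory repeat protein of vertebrate complexes, had fraction means between 9.02 in round spermatids and 9.86 in late-pachytene and a late over early change of -0.03 (SE 0.15, limma adjusted p = 0.871). Anapc13, a small protein that steadies the arm, averaged 11.44 late and 11.93 early, a change of -0.49 (SE 0.21, limma adjusted p = 0.0432). Its late and early arrays overlapped, and the call was lost in 10 of the 18 fits that left out 1 array, in which its change ranged between -0.60 and -0.38. With project as a block the change was -0.77 (limma adjusted p = 0.000547), and within 4 projects it was negative in each, between -1.35 and -0.37. The late arrays of these projects differed in stage, with 1 of late-pachytene in project 2 and 1 of round spermatids in each of projects 5 and 8. Project 6 held mid-pachytene, diplotene and round spermatid arrays. The values within projects are therefore not the same contrast as the late over early change. Ordered by their means, no neighbouring fractions of Anapc13 had arrays that stood apart.

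The activators behaved differently from the platform. Fzr1, which is known for holding the complex active late in division and in G1, gave log2 signals of 7.55, 8.68, 8.90 and 8.54 in spermatogonia, 7.56, 8.79 and 9.09 in pre-leptotene, 8.02, 8.20 and 9.54 in leptotene-zygotene, 10.07 in early-pachytene, 8.88 and 9.51 in mid-pachytene, 9.49 in late-pachytene, 10.07 and 10.61 in diplotene and 10.85, 11.17, 11.27 and 11.49 in round spermatids. The 3 early arrays of project 2 were the lowest of their fractions, and leptotene-zygotene replicate 3 overlapped mid-pachytene. The 4 round spermatid arrays lay above all others. The late mean was 10.06 and the early mean 8.49, a change of 1.56 (SE 0.28, limma adjusted p = 9.26e-05). Within each of 4 projects that held late and early arrays the difference was positive, between 1.78 and 2.43, and with project as a block it was 1.90. The late stages differed between these projects, as given for Anapc13, so the range within projects is not the same contrast. Of all tested probe sets 18.9% had a change as high as that of Fzr1 or higher. Fzr1 has 1 probe set annotated to it alone, so the rise rests on that probe set.

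Cdc20, the activator of metaphase and the target of the spindle checkpoint, gave log2 signals of 12.86, 12.31, 12.64 and 12.24 in spermatogonia, 13.35, 13.10 and 13.20 in pre-leptotene, 13.45, 13.41 and 13.46 in leptotene-zygotene, 13.23 in early-pachytene, 13.13 and 13.13 in mid-pachytene, 13.21 in late-pachytene, 13.18 and 13.07 in diplotene and 13.30, 13.09, 13.24 and 13.38 in round spermatids. All 16 arrays after spermatogonia lay between 13.07 and 13.46, above the 4 spermatogonia arrays. Pre-leptotene averaged 13.22 and spermatogonia 12.51, a change of 0.70 (SE 0.20, limma adjusted p = 0.115), which was not called. At this step 0.0714% of all tested probe sets were called higher. The differences within projects 2, 5 and 8 were 0.49, 0.79 and 0.96, and with project as a block Cdc20 was called (change 0.75, limma adjusted p = 0.0459). The lead is an _x_at probe set, whose oligonucleotides can match other transcripts. In the gene's own 1416664_at the fraction means were 12.17 in pre-leptotene and 11.48 in spermatogonia, the same order. The spermatogonia arrays also held the macrophage and spermatid transcripts given above, and their part in this difference was not tested.

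**Figure D2:**
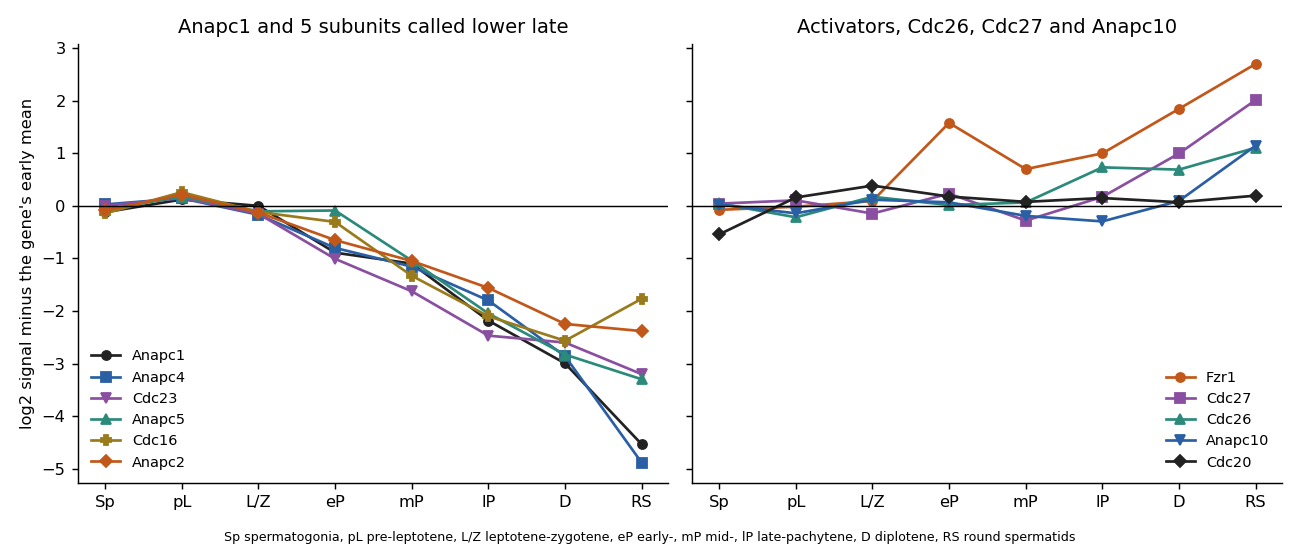
Fraction mean log2 signal minus the gene's mean over spermatogonia, pre-leptotene and leptotene-zygotene (vertical axis) in the 8 fractions (horizontal axis), one line per lead probe set. In round spermatids Anapc1 lies at -4.54 and Anapc4 at -4.88, Anapc5 at -3.30 and Anapc2 at -2.38, while Fzr1 lies at 2.70, Cdc27 at 2.01 and Anapc10 at 1.14.

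The first steps of the series moved no member past the test. Of the 9 tested leads 0 were called between pre-leptotene and spermatogonia (0.415% of all tested probe sets lower), 0 between leptotene-zygotene and pre-leptotene (1.86% higher and 0.165% lower) and 0 between early-pachytene and leptotene-zygotene (1.62% higher and 3.14% lower). The early-pachytene array gave Anapc4 at 10.57 and leptotene-zygotene arrays a mean of 11.21, a difference of -0.63 (SE 0.51, limma adjusted p = 0.481). Anapc1 differed by -0.89 at this step (SE 0.40), and Fzr1 by 1.49 (SE 0.66, limma adjusted p = 0.175). With 1 early-pachytene array these values have no spread of their own.

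Between mid-pachytene and leptotene-zygotene, the step at which 13.7% of tested probe sets were called higher and 15.3% lower, 0 of the 9 leads were called. Mid-pachytene arrays of Anapc2, Anapc4, Anapc5, Anapc10 and Cdc20 lay below all leptotene-zygotene arrays. This sets 2 arrays against 3, and the share of all tested probe sets that stood apart in this way was not counted. Anapc4 averaged 10.22 in mid-pachytene and 11.21 in leptotene-zygotene, a change of -0.99 (SE 0.40, limma adjusted p = 0.0755). Anapc5 changed by -0.94 (SE 0.38, limma adjusted p = 0.0778) and Anapc2 by -0.92 (SE 0.41, limma adjusted p = 0.105). Anapc1 changed by -1.10 (SE 0.32). Other probe sets of the members did pass, 1423930_at of Anapc4 at -1.75 (limma adjusted p = 0.00384), 1435177_a_at of Anapc5 at -1.06 (limma adjusted p = 0.0205), 1416906_at of Anapc5 at -0.95 (limma adjusted p = 0.044) and 1439394_x_at of Cdc20 at -0.71 (limma adjusted p = 0.041).

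The array project moved this count. With project as a block 4 of the 9 leads were called lower, Anapc4 at -1.66 (limma adjusted p = 0.00507), Anapc5 at -1.36 (limma adjusted p = 0.00332), Anapc2 at -1.34 (limma adjusted p = 0.0055) and Anapc13 at -0.74 (limma adjusted p = 0.0322), and over all probe sets that fit called 5336 lower and 3751 higher. Project 6 was the 1 project with arrays of both stages, and within it mid-pachytene minus leptotene-zygotene was -1.12 for Anapc4, -1.15 for Anapc5, -1.42 for Anapc2 and 1.31 for Fzr1. Fzr1 itself changed by 0.61 at this step (SE 0.52, limma adjusted p = 0.404), by 0.29 without mid-pachytene replicate 2, 0.92 without mid-pachytene replicate 1, 0.33 without leptotene-zygotene replicate 1 and 1.08 without leptotene-zygotene replicate 3. With the replicate number as a block it was called, at 0.89 (limma adjusted p = 0.0387).

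Between diplotene and mid-pachytene 2 of the 9 leads were called lower and 0 higher, where 12.7% of tested probe sets were called lower and 6.56% higher. Anapc5 averaged 10.07 in diplotene and 11.86 in mid-pachytene, a change of -1.79 (SE 0.42, limma adjusted p = 0.00738). Anapc4 averaged 8.51 in diplotene and 10.22 in mid-pachytene, a change of -1.70 (SE 0.44, limma adjusted p = 0.0125). Anapc1 changed by -1.90 (SE 0.35). Both calls were lost without mid-pachytene replicate 1 (limma adjusted p = 0.0732 for Anapc4 and 0.0837 for Anapc5) and without diplotene replicate 2 (0.11 and 0.101). Anapc2 changed by -1.20 (SE 0.45, limma adjusted p = 0.0773), by -1.72 and with a call without diplotene replicate 1 (limma adjusted p = 0.0358), by -0.67 without diplotene replicate 2 and by -0.77 without mid-pachytene replicate 1. At this step Fzr1 changed by 1.15 (SE 0.57, limma adjusted p = 0.186). Within projects 4 and 6 diplotene minus mid-pachytene was -1.47 and -1.94 for Anapc4, and with project as a block Anapc2 and Fzr1 were called as well (limma adjusted p = 0.0079 and 0.0177).

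Between round spermatids and diplotene 1 lead was called lower and 1 higher, where 14.2% of tested probe sets were called lower and 10.9% higher. Anapc4 averaged 6.49 in round spermatids and 8.51 in diplotene, a change of -2.02 (SE 0.38, limma adjusted p = 0.00121), and all 4 round spermatid arrays lay below both diplotene arrays. Anapc10 was the lead called higher. Anapc1 changed by -1.54 (SE 0.30), Anapc5 by -0.47 (SE 0.36, limma adjusted p = 0.415) and Anapc2 by -0.14 (SE 0.39, limma adjusted p = 0.88). Round spermatid arrays of Anapc2 and Anapc5 overlapped those of diplotene, and the difference between genes was not tested.

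**Figure D3:**
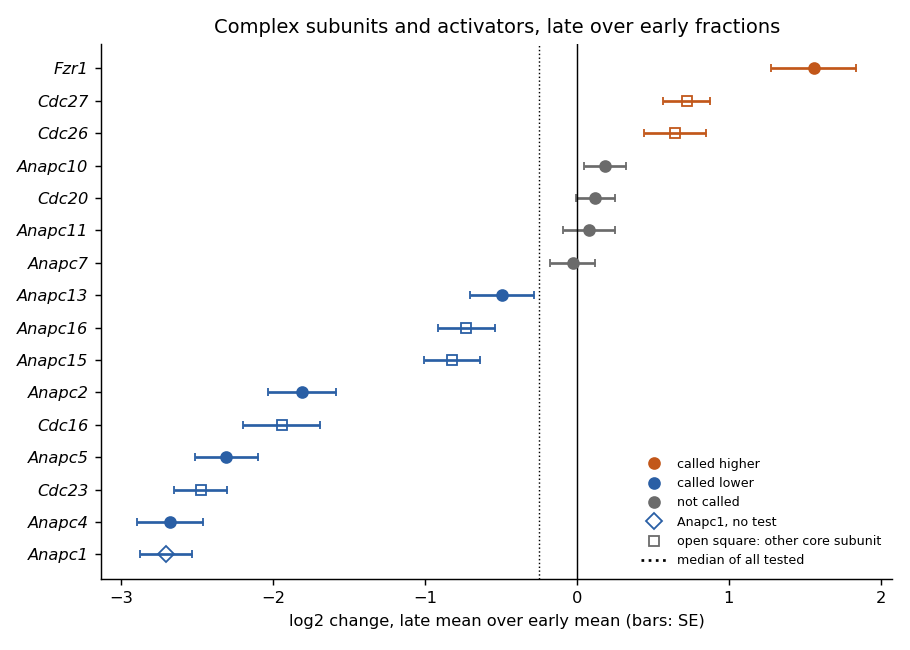
Log2 change of the late mean over the early mean (horizontal axis, bars for the standard error) of the lead probe set of 16 genes of the complex (vertical axis). The dotted line marks the median of all tested probe sets, -0.25, and the genes run between 1.56 for Fzr1 and -2.70 for Anapc1.

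The 6 other core subunits on the array covered the rest of the complex, and all 6 were called in the late over early comparison, 4 lower and 2 higher, beside 43.3% of all tested probe sets called lower and 34% higher. Their median change was -0.77. The repeat proteins Cdc23, which helps to bind activators, and Cdc16 were lower late in their leads. Cdc23 averaged 7.27 late and 9.74 early, a change of -2.47 (SE 0.18, limma adjusted p = 2.93e-09), and of the 6 it was the 1 called between mid-pachytene and leptotene-zygotene, at -1.47 (SE 0.33, limma adjusted p = 0.00395). The other tested Cdc23 probe set, 1460549_a_at, lay near background and changed by 0.40 (SE 0.26, limma adjusted p = 0.175), so the fall of Cdc23 rests on its lead. Cdc16 averaged 8.02 late and 9.96 early, a change of -1.94 (SE 0.25, limma adjusted p = 2.95e-06). Cdc16 gave 9.14, 8.43, 8.27 and 6.91 in round spermatids, against 7.62 and 7.16 in diplotene, its lowest mean, and these arrays overlapped.

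Cdc27, the repeat protein at the top of the arm that holds the tail of the activators, went the other way. Its lead gave log2 signals of 8.90, 9.01, 9.21 and 8.47 in spermatogonia, 8.86, 8.95 and 9.07 in pre-leptotene, 8.54, 8.41 and 9.17 in leptotene-zygotene, 9.09 in early-pachytene, 8.42 and 8.73 in mid-pachytene, 9.02 in late-pachytene, 9.76 and 9.94 in diplotene and 10.89, 10.70, 10.78 and 11.10 in round spermatids. Diplotene and round spermatid arrays of the lead lay above all its earlier ones. Cdc27 was called higher in diplotene over mid-pachytene (1.28, SE 0.31, limma adjusted p = 0.00938), in round spermatids over diplotene (1.02, SE 0.27, limma adjusted p = 0.0119) and in late over early (0.72, SE 0.15, limma adjusted p = 0.000467). These values are of the lead. In 1454739_at the means were 8.58 in mid-pachytene, 9.30 in late-pachytene, 9.36 in diplotene and 9.41 in round spermatids. The last step did not stand out there. In 1426076_at and 1433848_at, lower in signal, diplotene averaged 6.99 and 5.62 and round spermatids 7.62 and 6.33. Cdc26, the small partner of Cdc16, was also higher late, by 0.65 (SE 0.21, limma adjusted p = 0.00914).

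Anapc15, which helps release checkpoint proteins from the complex, was lower late, with a change of -0.82 (SE 0.18, limma adjusted p = 0.000691), with round spermatids over diplotene at -1.22 (limma adjusted p = 0.011). Its probe set 1424328_s_at changed by -0.56 (limma adjusted p = 0.0133) and 1428734_at by 0.29 (SE 0.28, limma adjusted p = 0.344), so its probe sets differed in sign too. Anapc16, a small arm subunit, changed by -0.73 in its lead (SE 0.19, limma adjusted p = 0.00221), but its probe set 1449339_at was higher by 1.25 (limma adjusted p = 5.83e-05). The 2 called probe sets of Anapc16 thus went opposite ways, though the early fraction means of 1449339_at, 4.73 to 5.28, lay near background. In 1419994_s_at the early fraction means were 8.91 to 9.13. Its late ones were 9.59 in mid-pachytene, 9.94 in late-pachytene, 9.10 in diplotene and 8.06 in round spermatids.

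Across the 8 fraction means, which all genes share arrays for, the lead of Anapc1 correlated with Anapc4 at r = 0.992, Anapc5 at 0.969, Anapc2 at 0.965, Cdc23 at 0.954 and Anapc13 at 0.874. Fzr1 stood at -0.918, Anapc10 at -0.675 and Cdc20 at -0.189, while Anapc7 was at 0.164 and Anapc11 at 0.115. Among the leads of the other core subunits besides Cdc23, Anapc16 was at 0.910, Anapc15 at 0.851 and Cdc16 at 0.831. Cdc27 was at -0.887 and Cdc26 at -0.938. Such likeness was common, since 16.7% of all tested probe sets reached r of 0.9 with Anapc1. Of the other Anapc1 probe sets 1434443_at stood at 0.504 and 1434444_s_at at 0.796, below the lead of Anapc4. Among 13095 probe sets annotated to 1 gene whose means span at least 2 log2 units, the 5 most like Anapc1 were those of Garre1, Pex26, Uimc1, Washc2 and Fbxw2, at r of 0.998 to 0.999. Their fraction means spanned between 3.37 log2 units in Fbxw2 and 5.53 in Washc2.

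Of 4 E2 enzymes, which carry ubiquitin and work with the complex, 3 were called lower and 1 higher in the late fractions. The shares over all tested probe sets were 43.3% lower and 34% higher. The median change of the 4 enzymes was -1.81, beside -0.25 over all tested probe sets. Ube2e1 changed by -2.54 (SE 0.17, limma adjusted p = 1.65e-09) and Ube2c, which places the first ubiquitin, by -1.68 (SE 0.24, limma adjusted p = 7.88e-06). Ube2d1 changed by -1.93 (limma adjusted p = 6.95e-05), but its late mean of 3.21 lies in the background. Ube2s, which extends the chain, changed by 1.26 (SE 0.20, limma adjusted p = 2.14e-05).

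Of 8 inhibitors of the complex and proteins of the spindle checkpoint 7 were tested, and 3 were called higher and 2 lower late (34% and 43.3% of all tested probe sets), a share near the background, with a median change of 0.18. Fbxo5, also called Emi1, an inhibitor of the complex in S phase and G2, averaged 6.14 late and 10.33 early, a change of -4.19 (SE 0.27, limma adjusted p = 9.69e-10). Mad2l1, the checkpoint protein that captures Cdc20, changed by -2.38 (SE 0.18, limma adjusted p = 6.36e-09). Mad2l2, known to bind Fzr1, averaged 12.66 late and 9.90 early, a change of 2.76 (SE 0.25, limma adjusted p = 5.43e-08). Mad2l1bp, which binds Mad2l1 and helps to silence the checkpoint, changed by 2.23 (SE 0.18, limma adjusted p = 1.65e-08).

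Among 24 measured substrates of the complex 15 were called lower and 5 higher late (43.3% and 34% of all tested probe sets), with a median change of -1.03. Between mid-pachytene and leptotene-zygotene 12 were called lower and 1 higher (15.3% and 13.7% of all tested probe sets). Ccna2, the cyclin of S phase, changed by -4.13 (SE 0.18, limma adjusted p = 4.87e-11), and Sgo1, a protector of cohesin, by -3.99 (SE 0.35, limma adjusted p = 3.09e-08). Cdc6 and Rrm2, which serve DNA replication, changed by -2.61 and -2.59 (limma adjusted p = 7.53e-10 and 3.32e-09). The substrates called higher were Pttg1 (securin, 0.98), Ccnb2 (1.02), Aurka (1.75), Nek2 (1.58) and Cdca3 (0.82), with limma adjusted p between 1.66e-06 and 0.00246.

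**Figure D4:**
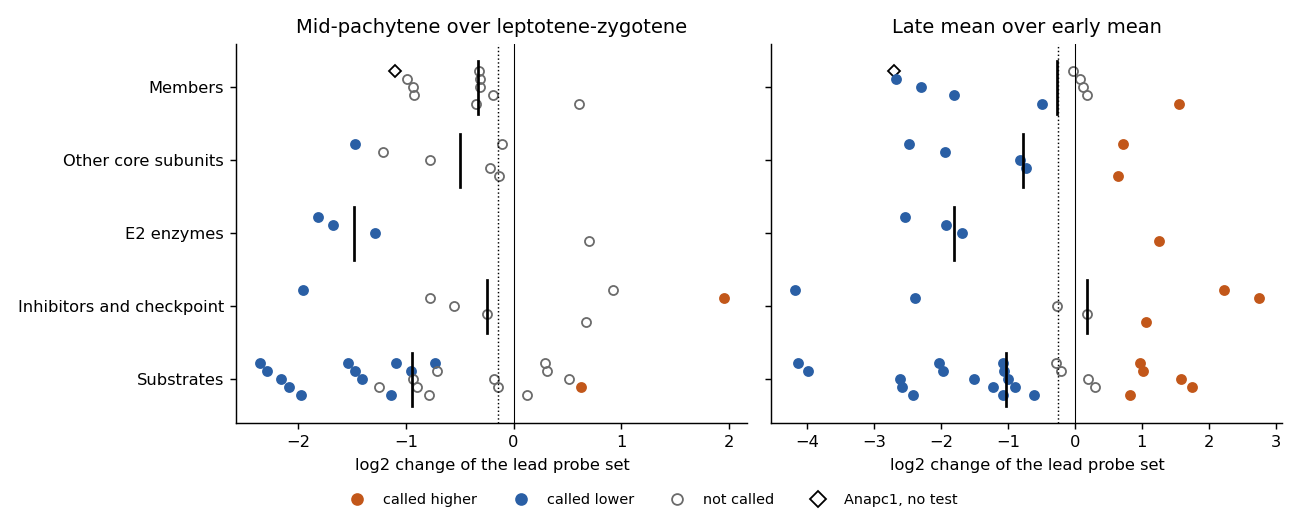
Log2 change of each gene's lead probe set (horizontal axis) for mid-pachytene over leptotene-zygotene (left) and the late mean over the early mean (right), with 1 point per gene, black bars at each list's median and a dotted line at the median of all tested probe sets. The bars of the members, at -0.33 and -0.26, include Anapc1 and would lie at -0.32 and -0.03 without it, beside dotted lines at -0.15 and -0.25. The bars of the E2 enzymes and substrates lie further down.

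Promoters were read because the members split into those that fell, Fzr1 and Anapc10 that stood high in spermatids, and Cdc20. Each window holds the 250 bases before the gene's start, 5′ to 3′ on the gene's strand, from RefSeq on the build GRCm38.p6. Anapc10 has 2 annotated starts, and the window of its downstream start is shown. Capitals mark letters found on the strand shown or, as in Fzr1, in reverse complement, TTTGAA of the cell cycle homology region, CCAAT of the CCAAT box and TGACGTCA of the cAMP response element, and no marked stretch overlaps another. The positions are chr4:118437344-118437593, minus strand, for Cdc20; chr8:79711599-79711848, plus strand, for Anapc10; chr2:128687396-128687645, minus strand, for Anapc1; chr5:52833885-52834134, plus strand, for Anapc4; and chr10:81378371-81378620, minus strand, for Fzr1.
Cdc20: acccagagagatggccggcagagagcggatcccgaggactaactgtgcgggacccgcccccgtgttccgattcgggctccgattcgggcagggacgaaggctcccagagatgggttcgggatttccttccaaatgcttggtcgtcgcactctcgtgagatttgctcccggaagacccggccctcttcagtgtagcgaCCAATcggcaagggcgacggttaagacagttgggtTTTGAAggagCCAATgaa
Anapc10: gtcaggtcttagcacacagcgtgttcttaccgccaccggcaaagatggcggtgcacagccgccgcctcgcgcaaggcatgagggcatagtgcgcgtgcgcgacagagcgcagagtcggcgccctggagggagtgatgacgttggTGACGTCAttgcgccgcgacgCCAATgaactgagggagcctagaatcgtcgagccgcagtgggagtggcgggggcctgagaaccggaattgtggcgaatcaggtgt
Anapc1: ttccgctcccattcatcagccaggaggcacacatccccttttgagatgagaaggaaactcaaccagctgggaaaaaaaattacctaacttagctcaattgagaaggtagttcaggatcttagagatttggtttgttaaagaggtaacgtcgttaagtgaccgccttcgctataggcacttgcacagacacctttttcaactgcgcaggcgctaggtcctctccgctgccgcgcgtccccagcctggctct
Anapc4: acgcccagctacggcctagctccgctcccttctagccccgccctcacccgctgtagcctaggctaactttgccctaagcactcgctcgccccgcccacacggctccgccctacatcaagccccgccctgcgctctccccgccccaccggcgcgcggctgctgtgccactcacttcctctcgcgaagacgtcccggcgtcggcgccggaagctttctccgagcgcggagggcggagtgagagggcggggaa
Fzr1: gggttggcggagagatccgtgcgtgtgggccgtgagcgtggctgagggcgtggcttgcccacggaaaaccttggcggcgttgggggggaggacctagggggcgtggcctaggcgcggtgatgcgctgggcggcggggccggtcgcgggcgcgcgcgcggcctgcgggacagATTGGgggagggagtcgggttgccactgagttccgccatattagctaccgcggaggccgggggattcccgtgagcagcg

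All 10 members had a window. TTTGAA stood in Cdc20 and Anapc7, 2 of 10 members, and in 16.0% of all 32851 windows. In Cdc20 it lay between 2 CCAAT letters, and CCAAT stood in 5 of 10 members, Anapc5, Anapc10, Anapc11, Cdc20 and Fzr1, and in 33.8% of all windows. TGACGTCA stood in Anapc10 alone, 1 of 10 members, and in 1.55% of all windows. The E2F letters TTCGCGC or TTGGCGC stood in 0 members and 3.14% of windows, and the MYB letters AACNG in 8 members and 74.2% of windows. Members were counted by gene over any of its windows, while these shares are by window. Of 27025 genes TTTGAA stood in 4934, CCAAT in 10133, TGACGTCA in 478, the E2F letters in 989 and the MYB letters in 20753. Anapc1, Anapc2, Anapc4 and Anapc13 held none of the 3 marked motifs in this stretch. Anapc5, whose lead also fell and whose window is not shown, held CCAAT in reverse complement. A match of letters is a description of the window and no evidence of a bound factor.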

How the data were processed

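The authors hybridised RNA of 8 sorted fractions to 20 Affymetrix MOE430 version 2 arrays and deposited linear values of intensity, which GeneSpring had computed by GC-RMA. The table held 45037 probe sets, of which the platform annotation gave 34945 to 1 gene, 932 to several and 9160 to none listed. Signals were taken to log2, and probe sets with at least 5 in at least 2 arrays were tested (22396). Fractions were fitted as 8 groups over all 20 arrays by limma 3.58.1 under R 4.3.3 (12 residual and 3.69 prior degrees of freedom), two-sided, with Benjamini-Hochberg adjustment at 0.05 over all tested probe sets. The fit was tested on simulated data.

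The members and lists were chosen with earlier results of these data known. All members were named by every probe set, and other pathway genes, at most 4 per list, by the size of a called change. All 6 other core subunits and the 5 substrates called higher were named after their values were seen, and each gene's lead stood for it. Alternatives were a floor at log2 5, no filter, median centring, quantile normalization, replicate number or array project as a block, the mean of all probe sets of a gene, and leaving out each replicated array. The number of arrays limits the precision.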

Additional observations from a re-analysis of the deposited data

Results flagged for a closer look

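In 46 groups of 4 arrays of the members' probe sets 3 arrays stood far from the other 3, a distance that chance gives in about 1 of 20 groups. All 3 were round spermatid replicate 1. It gave a log2 signal of 10.53 for the Anapc5 probe set 1433822_x_at, against 9.19 to 9.38 in the other round spermatid arrays, and 10.16 for 1435178_x_at of the same gene, against 9.19 to 9.32. It gave 11.84 for the Cdc20 probe set 1416664_at, below the 12.42 to 12.47 of the others.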

How the results depend on the processing

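The late over early count of 5 called members changed by no more than 1.5 times under any alternative, at 4 to 5 when 1 array was left out. Between mid-pachytene and leptotene-zygotene the count of 0 became 1 with quantile normalization, 2 with the mean of all probe sets, 4 with the project block and 3, of which 1 higher, with the replicate block. Between diplotene and mid-pachytene it was 2, 4 with either block, and 0 to 3 when 1 array was left out, 0 without mid-pachytene replicate 1 or diplotene replicate 2. Between round spermatids and diplotene it was 1 to 2 when 1 array was left out, and between pre-leptotene and spermatogonia 1 with the project block. The replicate block used 18 numbered arrays. Calls over all 22396 tested probe sets also rose with either block. In mid-pachytene over leptotene-zygotene the main fit called 3417 lower and 3062 higher. The project block called 5336 and 3751 there, and the replicate block 4919 and 4010. In diplotene over mid-pachytene the main fit called 2852 lower and 1469 higher. The project block called 4072 and 2744 there, and the replicate block 3818 and 2407. Same-numbered arrays deviated together (r over 0.1) in 33 of 37 pairs (median r = 0.33, lowest -0.17). Arrays of other numbers did so in 14 of 96 pairs (median r = -0.11). The main fit did not take the numbers as a block and so leaves this likeness out. Arrays of 1 project deviated together in 21 of 21 pairs (median r = 0.44, lowest 0.12), against a median of -0.09 between projects, and the fit without blocks leaves this out.

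Genes that were not called changed sign in places. Late over early, Anapc7 was 0.015 with the mean of its probe sets and -0.10 to 0.044 when 1 array was left out. Anapc11 was -0.053 with quantile normalization, -0.093 with the replicate block and -0.011 to 0.17 when 1 array was left out. In mid-pachytene over leptotene-zygotene, leaving out 1 array gave -0.56 to 0.18 for Anapc11 and -0.75 to 0.057 for Anapc13. The floor and median centring left every count of called members as it was. Without the filter the late over early call of Anapc13 was lost (limma adjusted p = 0.0591), and the median change of all probe sets was 0.06, against -0.25 with it.
Anapc1 fell by 0.95 late over early with the mean of its probe sets, against 2.70 in its lead, since that mean includes probe sets without the earlier decline. With 1 array each, early- and late-pachytene values depend on single pools, and the block on replicate number could not be fitted to early-pachytene.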
